A study of Mus musculus with 24 samples.

Results

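The 6 genes described here, G6pdx, Pgd, Tkt, Taldo1, Me1 and Idh1, encode enzymes of the pentose phosphate pathway and of NADPH production, and were followed in the oesophagus of mice with and without the transcription factor Nrf2. They were chosen by name: a probe belonged to the set when its gene name in the scanner files, brought up to date through its transcript identifier, was one of the 6. This gave 10 of 41174 probes and 6 of 20542 tested genes. The 4 groups of Nrf2-null mice (Nrf2-/- in the labels) had gastric, duodenal or mixed reflux for 4 weeks or were without reflux, and 4 groups of wild-type mice had the same conditions. All were C57BL/6J, male and 12 weeks old by label, with 3 arrays per group and 24 in all. Each array compared oesophageal RNA (Cy5) with one reference RNA pooled from 11 mouse cell lines (Cy3), so a value below is a log2 ratio to that reference. It cannot be compared between genes, since each gene has its own level in the reference and its own probe. The tissue label is whole oesophagus for 7 groups and oesophageal epithelium for Nrf2-null mixed reflux, while the RNA protocol speaks of dissected, snap-frozen oesophagi for all.

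The pentose phosphate pathway branches off glycolysis at glucose 6-phosphate. Its oxidative steps reduce NADP+ to NADPH, and its non-oxidative steps return sugar phosphates to glycolysis or leave ribose for nucleotides. NADPH also comes from cytosolic malic enzyme and isocitrate dehydrogenase, and is spent by reductases that recycle glutathione and thioredoxin or reduce quinones, and by fatty acid and sterol synthesis. Nrf2 binds the antioxidant response element together with a small Maf protein, and these 6 genes are among those reported as its targets in other mouse and human tissues and cells.

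To let the regulatory sequence be read beside the values, stretches around the transcription start are shown for 4 genes, namely the 3 whose level was lower in the mean genotype comparison and Me1. They come from RefSeq (build GRCm38.p6), run 5′ to 3′ on the gene's strand and hold 100 bases before and 30 from the start. Capitals mark a match to the letters TGACNNNGC, the core of the antioxidant response element, or to their reverse complement GCNNNGTCA.
G6pdx, chrX:74428851-74428980, minus strand: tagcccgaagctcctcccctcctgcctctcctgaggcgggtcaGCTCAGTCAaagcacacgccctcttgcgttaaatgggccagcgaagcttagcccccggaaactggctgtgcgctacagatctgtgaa
Tkt, chr14:30549031-30549160, plus strand: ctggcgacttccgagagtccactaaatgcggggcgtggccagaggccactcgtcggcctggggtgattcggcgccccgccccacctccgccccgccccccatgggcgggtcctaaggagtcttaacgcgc
Taldo1, chr7:141392060-141392189, plus strand: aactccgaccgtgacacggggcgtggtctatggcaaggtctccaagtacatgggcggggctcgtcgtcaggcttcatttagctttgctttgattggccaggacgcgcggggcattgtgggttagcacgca
Me1, chr9:86695885-86696014, minus strand: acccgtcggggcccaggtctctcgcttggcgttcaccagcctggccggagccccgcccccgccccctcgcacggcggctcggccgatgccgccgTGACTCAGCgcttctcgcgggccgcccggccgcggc

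The search covered windows of 300 bases, 250 before the start and 50 from it, on both strands. G6pdx held the match at bases -57 to -49, on the opposite strand, where it reads TGACTGAGC. Me1 held TGACTCAGC in 1 of 2 windows, over the start itself at -6 to 3, and Pgd held TGACATTGC in 1 of 2 windows at 4 to 12. No match lay in the windows of Tkt, Taldo1 and Idh1, which says only that these letters are not there. Of the 6 genes 3 held a match in a window, against 14.0% of all 27025 genes (12.4% of 32851 windows), and a match is a description of letters and not a binding site.

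**Figure D1:**
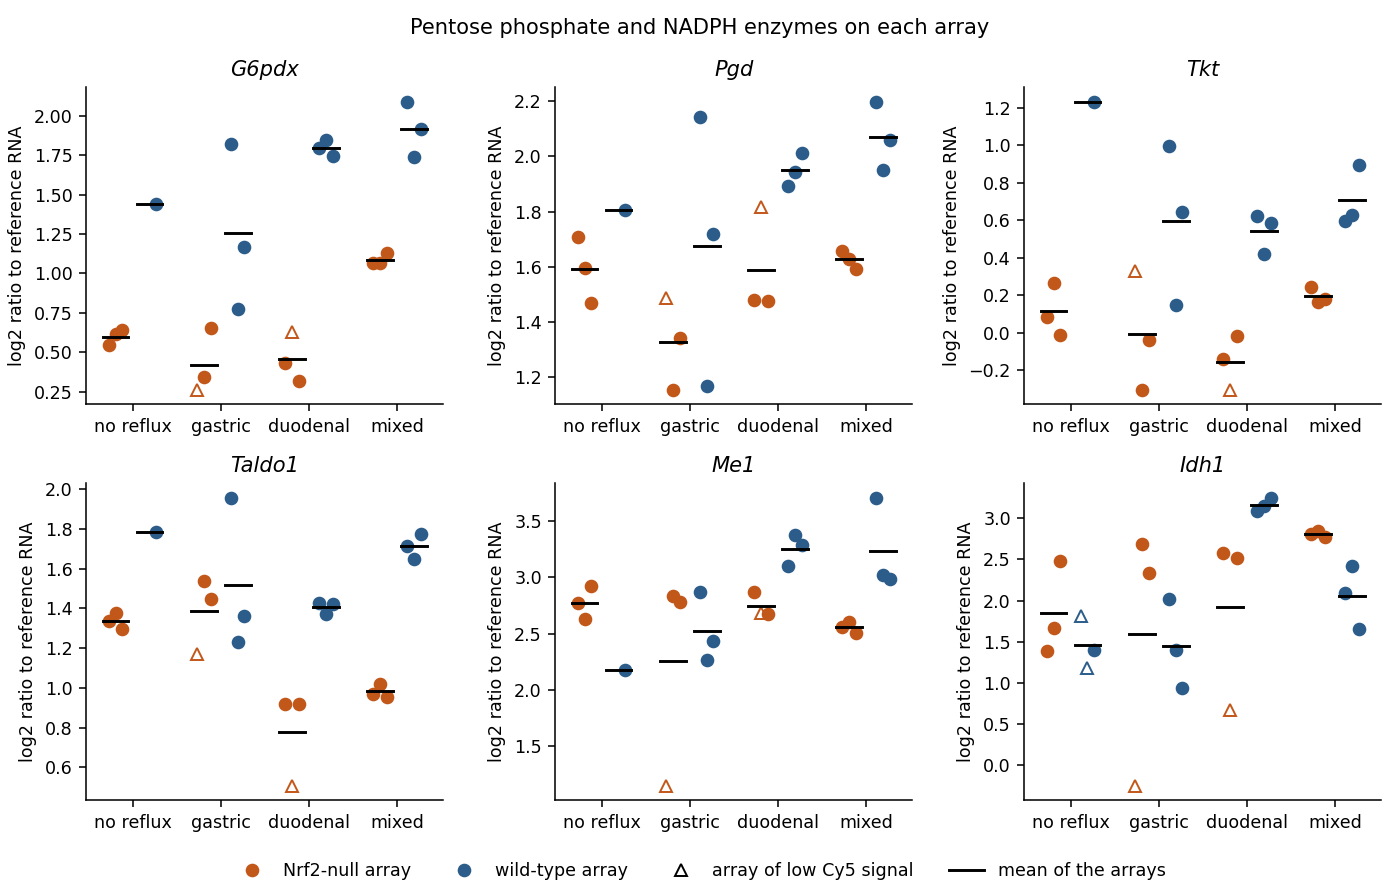
Log2 ratio of oesophageal to reference RNA (y axis) of each enzyme gene on each array, by reflux condition, with Nrf2-null arrays left of wild-type arrays and a bar at the mean of the arrays. For G6pdx the Nrf2-null arrays lie below the wild-type arrays of the same condition in all 4 conditions, while Idh1 is spread from -0.26 to 2.68 within Nrf2-null gastric reflux alone. Triangles mark arrays of low Cy5 signal.

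The arrays were first checked as a whole. Nfe2l2, which encodes Nrf2, lay between -3.81 and -2.83 on all 12 Nrf2-null arrays, against 1.45 to 2.18 on 10 of the 12 wild-type arrays (those not of slide 1). The 3 arrays of Nrf2-null mixed reflux differed from each other little more than repeat spots of an array (variance ratio 0.809 to 1.52, against 5.12 to 502 for the 21 pairs within other groups), so they were averaged and counted as 1 sample. On wild type without reflux replicates 1 and 2, the arrays of slide 1, the software flagged 13.0% and 11.8% of spots as outliers, against 0.293% to 0.659% elsewhere. This removed the probe that represents each member but Idh1 from both, and by these probes the wild type without reflux rests on replicate 3 alone for 5 of the 6 genes. Median Cy5 intensity was 81.8 to 103 on 4 arrays (Nrf2-null gastric replicate 1, Nrf2-null duodenal replicate 2 and the 2 of slide 1) and 138 to 249 on the other 20. Nrf2-null gastric replicate 2 is labelled male but had Xist at -1.78 and the Y-linked Ddx3y at -4.20, against -7.20 to -4.67 and 0.16 to 1.48 on the other 23. All 7 squamous epithelium markers were well above background on all 24 arrays, and so were all 8 skeletal muscle and all 6 smooth muscle markers, those labelled epithelium included. In such tissue, fewer cells of a type and less RNA per cell cannot be told apart.

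Nrf2-null oesophagi had lower RNA levels of the genes for the first enzyme of the oxidative branch and for transketolase and transaldolase of the non-oxidative branch. Averaged over the 4 conditions, G6pdx fell to 51.5% of the wild-type level (95% interval 42.8% to 62.0%), Tkt to 60.2% (50.2% to 72.2%) and Taldo1 to 71.5% (61.1% to 83.7%) in limma's test with Benjamini-Hochberg adjustment over all genes. Thus 3 of the 6 genes were called lower and 0 higher, where 2.37% of all tested genes were called lower. With scan day as a block, and with median centring in place of loess, the count was 1 (G6pdx). The median of the 6 differences was -0.41, against 0.03 over all genes. Pgd, Me1 and Idh1 were not called. Neutrophil markers (5 measured of 6) were apart between the genotypes in each condition. They averaged 1.27 to 1.42 on Nrf2-null and -0.10 to 0.92 on wild-type arrays without reflux, and 1.68 to 2.98 on Nrf2-null and 0.91 to 1.28 on wild-type arrays under gastric reflux. Under duodenal reflux they averaged 5.02 to 5.36 on Nrf2-null and 3.62 to 3.75 on wild-type arrays, and under mixed reflux 5.31 to 5.39 on Nrf2-null and 1.96 to 4.00 on wild-type arrays. Without reflux the 5 fibroblast markers (0.12 to 0.72 on Nrf2-null, -2.76 to -0.53 on wild-type arrays) and the 2 measured of 3 erythroid markers (2.10 to 2.21 on Nrf2-null, 1.20 to 1.36 on wild-type arrays) were apart as well. The 6 macrophage markers were apart there too (0.61 to 2.08, against -0.51 to 0.54). The 7 squamous markers were higher on all Nrf2-null arrays under each reflux (gastric, 4.66 to 5.47 against 4.10 to 4.50). Under gastric reflux the fibroblast markers were lower on all Nrf2-null arrays. Macrophage, skeletal muscle and erythroid markers were higher on all of them under duodenal reflux. Smooth muscle and hepatocyte markers were lower on all of them under mixed reflux. The part of these cells in the genotype differences was not tested.

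Within single conditions fewer calls were made. G6pdx was the 1 gene called lower under gastric reflux, where 7.18% of all genes were lower, and the 1 gene called lower under duodenal reflux, where 0.682% were. Without reflux 0 of the 6 passed (limma; 2 at an unadjusted p under 0.05) with 0.17% of all genes called in either direction, and under mixed reflux 0 passed (2 unadjusted) with 3.46% called. A joint F test of the genotype difference across the 4 reflux conditions, asking whether it was the same in each, called 0 of the 6 and 5.07% of all genes, with adjusted p of 0.341 (Taldo1) to 0.964 (Pgd) in limma. No sample enters more than 1 of the 4 genotype differences, though all share the common reference.

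**Figure D2:**
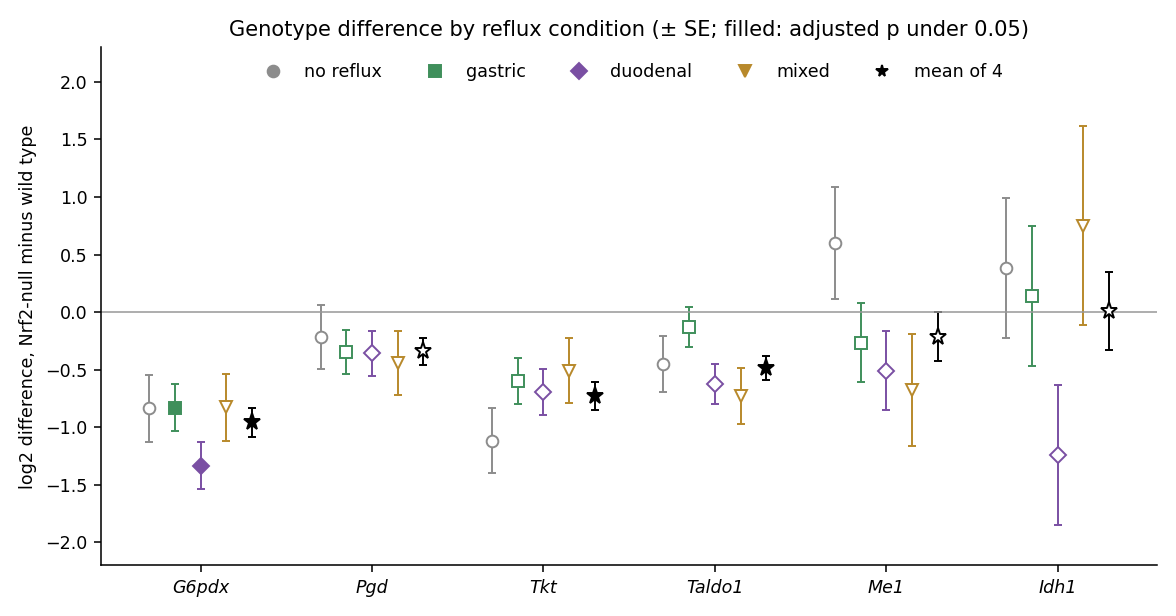
Log2 difference Nrf2-null minus wild type (y axis) for each gene in the 4 conditions and as their mean, with the standard error of the fit as bars and filled symbols for adjusted p under 0.05. The 5 values of G6pdx run from -1.33 to -0.83, those of Tkt from -1.12 to -0.51, and those of Idh1 from -1.24 to 0.75.

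G6pdx encodes glucose-6-phosphate dehydrogenase, which forms the first NADPH of the pathway and sets its pace. Its probe A_51_P187082 matches chrX:71654949-71655008 on the minus strand (mm9, per the file headers), and its place in an exon or untranslated region was not determined here. Without reflux it measured 0.55, 0.61 and 0.64 in Nrf2-null oesophagi, against 1.44 on the 1 wild-type array that measured it. Under gastric reflux it measured 0.26, 0.35 and 0.66 in Nrf2-null oesophagi, against 1.82, 0.77 and 1.17 in the wild type. All Nrf2-null arrays of both conditions were below all wild-type ones. Under duodenal reflux G6pdx was at 0.43, 0.63 and 0.32 in Nrf2-null oesophagi, against 1.79, 1.84 and 1.75 in the wild type. Under mixed reflux it was at 1.07, 1.06 and 1.13 on the Nrf2-null arrays, against 2.09, 1.74 and 1.92 on the wild-type arrays. The groups were apart in these conditions too. The Nrf2-null mixed reflux arrays, counted as 1 sample, were the highest of the Nrf2-null ones.

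The mean difference of G6pdx was -0.96 ± 0.13 (SE; limma adjusted p = 0.000427) and it was called in all 36 alternatives, between -1.02 and -0.89. It was -1.33 ± 0.20 under duodenal (limma adjusted p = 0.00384) and -0.83 ± 0.20 under gastric reflux (limma adjusted p = 0.0151). Without reflux it was -0.84 ± 0.29 (limma adjusted p = 0.468) and under mixed reflux -0.83 ± 0.29 (limma adjusted p = 0.147), neither a call. With the flagged spots of slide 1 kept, the difference without reflux was -1.05 (limma adjusted p = 0.0542). The duodenal difference was also -1.33 within scan day 3, which held both groups (limma adjusted p = 0.00397). It lost its call with slide as a block (-1.24, limma adjusted p = 0.101) and with median centring instead of loess (-1.53, limma adjusted p = 0.117). No scan day held both groups under gastric reflux, and with scan day as a block the difference there was -0.89 (limma adjusted p = 0.787). Without Nrf2-null gastric replicate 2, whose sex-linked genes go against its label, the X-linked G6pdx differed by -0.79 (limma adjusted p = 0.0403).

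By group, G6pdx averaged 0.42 ± 0.21, 0.46 ± 0.15 and 0.60 ± 0.05 (SD, n = 3) in Nrf2-null gastric, duodenal and no reflux, and 1.09 in the 1 mixed reflux sample. The wild type stood at 1.25 ± 0.53 under gastric reflux, 1.44 without reflux (n = 1), 1.79 ± 0.05 under duodenal and 1.91 ± 0.17 under mixed reflux (SD, n = 3). In the order of all 8 groups no step between neighbours with 3 samples each exceeded the larger SD, and the groups of 1 sample have no SD to compare with.

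Pgd encodes 6-phosphogluconate dehydrogenase, which forms the second NADPH and releases ribulose 5-phosphate. Its brighter probe A_52_P84096 matches chr4:148524293-148524352 on the minus strand (mm9). Without reflux Pgd measured 1.71, 1.59 and 1.47 in Nrf2-null oesophagi, against 1.81 on the wild-type array. Under gastric reflux the values were 1.49, 1.16 and 1.34 in Nrf2-null oesophagi, against 2.14, 1.17 and 1.72 in the wild type. The gastric groups overlapped, since wild-type replicate 2 was about as low as the lowest Nrf2-null array. Under duodenal reflux Pgd was at 1.48, 1.82 and 1.48 in Nrf2-null oesophagi, against 1.89, 1.94 and 2.01 in the wild type. Under mixed reflux it was at 1.66, 1.63 and 1.59 on Nrf2-null arrays, against 2.20, 1.95 and 2.06 on wild-type arrays. Neither pair of groups overlapped, with the Nrf2-null arrays lower, those of mixed reflux counting as 1 sample.

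The differences of Pgd were -0.22 ± 0.28, -0.35 ± 0.19, -0.36 ± 0.19 and -0.44 ± 0.28 (SE) for no, gastric, duodenal and mixed reflux, none of them called (limma adjusted p of 0.218 to 0.894). Their mean was -0.34 ± 0.12 (95% interval -0.60 to -0.09; limma adjusted p = 0.0909), and in this fit the 4 point the same way. Without the 2 Nrf2-null arrays of low Cy5 signal, a setting chosen after seeing the data, it was -0.39 (limma adjusted p = 0.0306). Without wild-type gastric replicate 2 it was -0.40 (limma adjusted p = 0.0224). With scan day as a block and with median centring the mean was -0.28 in each, and was not called. With slide as a block Pgd differed by 0.13 under duodenal and 0.03 under mixed reflux, both with their sign turned. A second probe of Pgd, A_51_P391996 at chr4:148524812-148524871, was at -0.70 on Nrf2-null gastric replicate 1 and -0.37 on Nrf2-null duodenal replicate 2, both of low signal, and between 0.73 and 1.48 on the other 10 Nrf2-null arrays. Its mean difference was -0.46 ± 0.24, with 0.01 ± 0.56 without and 0.24 ± 0.56 under mixed reflux, so the 2 probes of Pgd disagreed in sign in these conditions.

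Group means of Pgd were 1.33 ± 0.17, 1.59 ± 0.20 and 1.59 ± 0.12 (SD, n = 3) in Nrf2-null gastric, duodenal and no reflux and 1.63 in mixed reflux. In the wild type they were 1.68 ± 0.49 under gastric reflux, 1.81 without reflux (n = 1), 1.95 ± 0.06 under duodenal and 2.07 ± 0.12 under mixed reflux (SD, n = 3). Every Nrf2-null group ranked below every wild-type group, and among neighbours with 3 samples each only the step from the lowest group to the next exceeded the larger SD.

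Tkt encodes transketolase, which moves 2-carbon units between sugar phosphates. Its brightest probe A_51_P394515 matches chr14:31386641-31386700 on the plus strand (mm9). Without reflux Tkt measured 0.09, 0.27 and -0.01 in Nrf2-null oesophagi, against 1.23 on the wild-type array. Under gastric reflux it was at 0.33, -0.30 and -0.04 in Nrf2-null oesophagi, against 1.00, 0.15 and 0.64 in the wild type. Here wild-type replicate 2 lay within the Nrf2-null range, and without reflux the groups were apart. Under duodenal reflux Tkt was at -0.14, -0.30 and -0.02 in Nrf2-null oesophagi, against 0.62, 0.42 and 0.59 in the wild type. Under mixed reflux the Nrf2-null arrays gave 0.24, 0.17 and 0.18, against 0.60, 0.63 and 0.90 in the wild type. Both pairs were without overlap, with lower values in the Nrf2-null arrays, which count as 1 sample under mixed reflux.

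Averaged over conditions, Tkt fell by 0.73 ± 0.12 on the log2 scale (SE; limma adjusted p = 0.00254). It was called in 34 of 36 alternatives, and lost with median centring (-0.60, limma adjusted p = 0.079) and with scan day as a block (-0.67, limma adjusted p = 0.0859). The difference was -1.12 ± 0.28 without reflux (limma adjusted p = 0.234), and -0.54 to -1.19 over its alternatives, with a call in 1 of 20 (local backgrounds as read). Under gastric reflux it was -0.60 ± 0.20 (limma adjusted p = 0.051, called in 7 of 20 alternatives), under duodenal -0.70 ± 0.20 (limma adjusted p = 0.0873) and under mixed reflux -0.51 ± 0.28 (limma adjusted p = 0.389). With median centring the mixed reflux difference of Tkt was -0.0022. A dimmer probe, A_52_P624447 at chr14:31387724-31387783, was above background on 23 of 24 arrays and was not flagged on slide 1. Without reflux it measured -0.48, -0.23 and -0.18 in Nrf2-null oesophagi, against 0.71, 0.53 and 0.69 on all 3 wild-type arrays, without overlap, and the mean difference was -0.62 ± 0.10. The third probe, A_52_P631197, was above background on only 2 of 24 arrays.

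The 4 Nrf2-null groups had Tkt means of -0.15 ± 0.14 under duodenal, -0.0046 ± 0.32 under gastric and 0.11 ± 0.14 without reflux (SD, n = 3) and 0.20 in the mixed reflux sample. The wild-type groups followed with 0.54 ± 0.11 under duodenal, 0.60 ± 0.43 under gastric and 0.71 ± 0.17 under mixed reflux (SD, n = 3) and 1.23 without reflux (n = 1). No step between neighbours with 3 samples each exceeded the larger SD, and with flagged spots kept the wild type without reflux averaged 0.88 ± 0.32 (SD, n = 3).

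Taldo1 encodes transaldolase, which links the pathway to glycolysis by moving 3-carbon units. Its probe A_51_P401958 matches chr7:148588764-148588823 on the plus strand (mm9). Without reflux Taldo1 measured 1.33, 1.38 and 1.30 in Nrf2-null oesophagi, against 1.78 on the wild-type array. With gastric reflux Taldo1 measured 1.17, 1.54 and 1.45 in Nrf2-null oesophagi, against 1.96, 1.23 and 1.36 in the wild type. The gastric groups overlapped widely. Under duodenal reflux the Nrf2-null arrays gave 0.92, 0.51 and 0.92, against 1.43, 1.37 and 1.42 in the wild type. Under mixed reflux they gave 0.97, 1.02 and 0.96, against 1.71, 1.65 and 1.77 in the wild type. The Nrf2-null arrays were below all wild-type arrays under duodenal and mixed reflux, those of mixed reflux counting as 1 sample.

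The mean difference of Taldo1 was -0.48 ± 0.11 (SE; limma adjusted p = 0.0127). It was called in 34 of 36 alternatives and lost with median centring (-0.33, limma adjusted p = 0.563) and with scan day as a block (-0.46, limma adjusted p = 0.185). By condition it was -0.45 ± 0.24 without reflux (limma adjusted p = 0.702), -0.13 ± 0.17 under gastric (limma adjusted p = 0.623), -0.63 ± 0.17 under duodenal (limma adjusted p = 0.0779) and -0.73 ± 0.24 under mixed reflux (limma adjusted p = 0.129). Without the 2 Nrf2-null arrays of low Cy5 signal the mixed reflux difference was again -0.73, and it was called. These arrays enter only the pooled spread of that comparison, and the setting was chosen after seeing the data. With median centring the mixed reflux difference was -0.21, not a call. Group means in the Nrf2-null mice were 0.78 ± 0.24 under duodenal reflux, 0.98 in the mixed reflux sample, 1.34 ± 0.04 without reflux and 1.39 ± 0.19 under gastric reflux (SD, n = 3). In the wild type they were 1.41 ± 0.03 under duodenal, 1.52 ± 0.39 under gastric and 1.71 ± 0.06 under mixed reflux (SD, n = 3) and 1.78 without reflux (n = 1). No step between neighbours with 3 samples each exceeded the larger SD, and with flagged spots kept the wild type without reflux averaged 1.65 ± 0.14 (SD, n = 3), below that with mixed reflux.

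Me1 encodes cytosolic malic enzyme, which yields NADPH as malate is turned into pyruvate. Its brighter probe A_51_P266861 matches chr9:86475291-86475347 on the minus strand (mm9). Without reflux Me1 measured 2.77, 2.63 and 2.92 in Nrf2-null oesophagi, against 2.18 on the wild-type array. With gastric reflux Me1 measured 1.15, 2.84 and 2.78 in Nrf2-null oesophagi, against 2.87, 2.26 and 2.43 in the wild type. The Nrf2-null arrays were higher than the lone wild-type array without reflux, and overlapped with the wild type under gastric reflux, where replicate 1, of low Cy5 signal, stood far below the other 2. With flagged spots kept, the wild type without reflux measured 3.28, 2.77 and 2.18, which spans the Nrf2-null values. Under duodenal reflux Me1 was at 2.87, 2.68 and 2.68 in Nrf2-null oesophagi, against 3.10, 3.38 and 3.29 in the wild type. Under mixed reflux it was at 2.56, 2.60 and 2.51 on Nrf2-null arrays, against 3.70, 3.02 and 2.98 on wild-type arrays. In both conditions all Nrf2-null arrays were below all wild-type arrays, those of mixed reflux counting as 1 sample.

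None of these differences was called. They were 0.60 ± 0.49, -0.27 ± 0.34, -0.51 ± 0.34 and -0.68 ± 0.49 (SE) for no, gastric, duodenal and mixed reflux (limma adjusted p of 0.446 to 0.822), and the mean was -0.21 ± 0.21 (95% interval -0.66 to 0.24; limma adjusted p = 0.579). With slide as a block the duodenal and mixed reflux differences were -1.43 (limma adjusted p = 0.0198) and -2.00 (limma adjusted p = 0.0376). Without the 2 Nrf2-null arrays of low Cy5 signal the gastric difference was 0.29 (limma adjusted p = 0.323). The second Me1 probe, A_51_P186601 at chr9:86480552-86480611, differed by 0.03 ± 0.36, -0.15 ± 0.26, -0.57 ± 0.26 and -0.23 ± 0.36 for no, gastric, duodenal and mixed reflux. Among Nrf2-null arrays it was lowest on gastric replicate 1 (2.35), as the brighter probe was, and next on duodenal replicate 2 (2.58), against 3.26 to 3.48 on the other 10 Nrf2-null arrays.

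Group means of Me1 on its brighter probe were 2.25 ± 0.96 under gastric reflux, 2.56 in the mixed reflux sample, 2.74 ± 0.11 under duodenal and 2.77 ± 0.15 without reflux (SD, n = 3) in the Nrf2-null mice. The wild type stood at 2.18 without reflux (n = 1), 2.52 ± 0.31 under gastric, 3.23 ± 0.41 under mixed and 3.25 ± 0.14 under duodenal reflux (SD, n = 3). Between neighbours with 3 samples each, only the step from Nrf2-null without reflux to wild-type mixed reflux exceeded the larger SD.

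Idh1 encodes the cytosolic and peroxisomal NADP+-dependent isocitrate dehydrogenase, and its probe A_51_P132978 (chr1:65206035-65206094, minus strand, mm9) was measured on all 24 arrays. Without reflux Idh1 measured 1.39, 1.66 and 2.48 in Nrf2-null oesophagi, against 1.82, 1.17 and 1.40 in the wild type. Under gastric reflux it measured -0.26, 2.68 and 2.34 in Nrf2-null oesophagi, against 2.02, 1.39 and 0.94 in the wild type. These groups overlapped, and the Nrf2-null gastric values spanned the whole wild-type range. Under duodenal reflux Idh1 was at 2.58, 0.67 and 2.51 in Nrf2-null oesophagi, against 3.09, 3.15 and 3.25 in the wild type. Under mixed reflux it was at 2.81, 2.85 and 2.77 on Nrf2-null arrays, against 2.09, 2.42 and 1.66 on wild-type arrays. The groups were apart in both, with Nrf2-null lower under duodenal and higher under mixed reflux, where its arrays count as 1 sample.

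The mean difference of Idh1 was 0.01 ± 0.34 (95% interval -0.71 to 0.73; limma adjusted p = 0.992), and the 4 conditions gave 0.38 ± 0.61, 0.14 ± 0.61, -1.24 ± 0.61 and 0.75 ± 0.86 (SE; no, gastric, duodenal and mixed reflux; limma adjusted p of 0.297 to 0.918). That interval includes the difference of Taldo1 (-0.48). With slide as a block Idh1 differed by -4.25 under duodenal (limma adjusted p = 0.0135) and by -2.89 under mixed reflux (limma adjusted p = 0.121), the second with its sign turned. The 2 lowest values of Idh1, on Nrf2-null gastric replicate 1 and Nrf2-null duodenal replicate 2, are on arrays of low Cy5 signal. Without those 2 arrays Idh1 was higher in Nrf2-null than in wild-type oesophagi under gastric reflux by 1.06 (limma adjusted p = 0.0238), and Tkt lower by -0.77 (limma adjusted p = 0.0141), a setting chosen after seeing the data. Without Nrf2-null gastric replicate 2 instead, Idh1 differed there by -0.41 (limma adjusted p = 0.675) and Tkt by -0.45 (limma adjusted p = 0.156). With scan day as a block Idh1 differed there by -0.82 (limma adjusted p = 0.89). On Nrf2-null gastric replicate 1 the 8 skeletal muscle markers averaged 6.13 and the 5 measured of 7 adipocyte markers 3.65, against 2.38 and 2.54, and 1.48 and 1.51, on the other 2 arrays of its group. The part of signal, muscle or fat in these values was not tested. Group means of Idh1 were 1.59 ± 1.61 under gastric, 1.84 ± 0.57 without and 1.92 ± 1.08 under duodenal reflux (SD, n = 3) and 2.81 in the mixed reflux sample in Nrf2-null mice, against 1.45 ± 0.54, 1.46 ± 0.33, 3.16 ± 0.08 and 2.06 ± 0.38 (SD, n = 3) in the wild type under gastric, no, duodenal and mixed reflux. No step between neighbours with 3 samples each exceeded the larger SD.

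Muscle and fat markers also differed between the 3 wild-type gastric arrays. Here replicates 2 and 3 averaged 5.44 and 5.35 for skeletal muscle and 3.76 and 3.34 for adipocyte markers, against 0.97 and 1.13 on replicate 1, the array with the highest G6pdx, Pgd, Tkt and Taldo1 of that group. On Nrf2-null gastric replicate 1, where both were high, Tkt (0.33) and Pgd (1.49) were the highest of the group. G6pdx (0.26) and Taldo1 (1.17) were the lowest there. The 6 smooth muscle markers lay between 2.49 and 3.31 on the Nrf2-null gastric arrays and between 3.15 and 3.73 on the wild-type gastric arrays. The part of these cells in the results was not tested.

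Few of these genes were called between reflux and no reflux, and a missing call does not show that a gene was unchanged. In Nrf2-null mice Taldo1 fell by 0.56 ± 0.17 on the log2 scale under duodenal reflux (SE; limma adjusted p = 0.0356), the 1 gene called lower where 6.3% of all genes were. Its 3 duodenal arrays were below the 3 without reflux, and the neutrophil markers averaged 5.02 to 5.36 on the duodenal arrays and 1.27 to 1.42 on those without reflux, a difference whose part was not tested. That call was made in 10 of 22 alternatives, and was lost without each of the 3 Nrf2-null arrays without reflux in turn (-0.54 to -0.58), without Nrf2-null duodenal replicate 2 (-0.42), and in the authors' deposited values (-0.54, limma adjusted p = 0.0515). Gastric reflux gave 0 of 6 calls in Nrf2-null mice (limma; 0 at an unadjusted p under 0.05), with 0.584% of all genes called, and mixed reflux 0 of 6 (0 unadjusted), with 4.76% called. G6pdx was higher under mixed than without reflux in Nrf2-null mice by 0.49 ± 0.29 (SE; limma adjusted p = 0.392), with all 3 arrays, counted as 1 sample, above the 3 arrays without reflux.

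In wild-type mice 0 of the 6 genes were called under gastric (limma; 1 at an unadjusted p under 0.05), duodenal (3 unadjusted) or mixed reflux (1 unadjusted), where 4.15%, 10.3% and 0.0536% of all genes were. Idh1 differed most, by 1.70 ± 0.61 under duodenal reflux (SE; limma adjusted p = 0.0874), and its 3 duodenal arrays were all above the 3 without reflux. Me1 differed by 1.08 ± 0.49 under duodenal (limma adjusted p = 0.181) and by 1.06 ± 0.49 under mixed reflux (limma adjusted p = 0.439), each against 1 array, and by 0.51 and 0.49 with the flagged spots of slide 1 kept. No scan day held wild-type arrays both without and with duodenal or mixed reflux. With scan day as a block Idh1 differed by 0.81 ± 1.30 under duodenal and -0.30 ± 1.30 under mixed reflux, the second with its sign turned, and Me1 by 0.86 ± 0.73 and 0.84 ± 0.73 (SE; limma adjusted p = 1.00 for all 4). Without the 2 Nrf2-null arrays of low Cy5 signal, which enter the pooled spread, the duodenal differences of Idh1 and Me1 passed with the same sizes (limma adjusted p = 0.00106 and 0.0138). Tkt differed by -0.64 ± 0.28, -0.69 ± 0.28 and -0.53 ± 0.28 under gastric, duodenal and mixed reflux, none called, and by -0.28, -0.34 and -0.17 with the flagged spots of slide 1 kept. G6pdx differed by -0.18 ± 0.29, 0.36 ± 0.29 and 0.48 ± 0.29 in the same 3 comparisons. With the flagged spots kept, G6pdx in the wild type without reflux averaged 1.65 ± 0.30 (SD, n = 3), against 1.44 on the 1 array. The gastric difference of G6pdx was then -0.40. All comparisons within a genotype share the arrays without reflux.

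**Figure D3:**
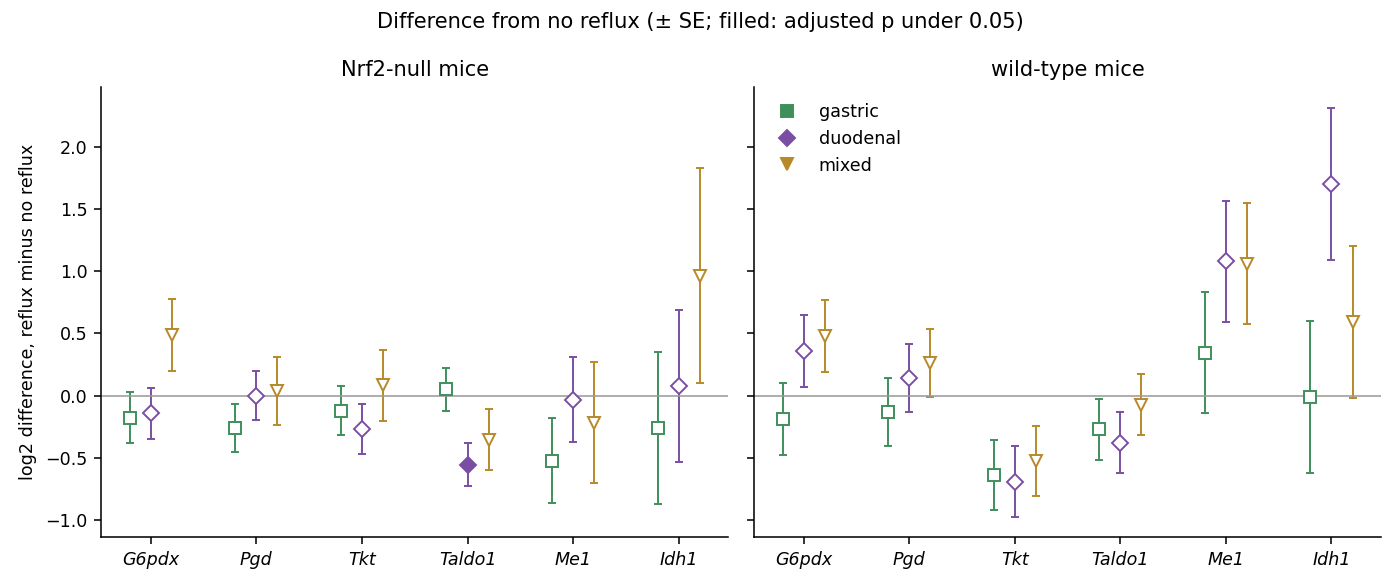
Log2 difference from no reflux (y axis) of each gene under gastric, duodenal and mixed reflux, in Nrf2-null mice (left) and wild-type mice (right), with the standard error of the fit as bars and filled symbols for adjusted p under 0.05. The filled symbol is Taldo1 under duodenal reflux in Nrf2-null mice (-0.56), and the highest value is Idh1 under duodenal reflux in wild-type mice (1.70).

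Lists of related genes were set beside the 6 enzymes. A list of 27 other genes was labelled pentose phosphate and NADPH-forming, a loose label that does not hold for several of them, Mthfd1l, Nadk and Nadk2 included. Of these 24 were tested, and in the mean genotype comparison 1 was higher and 1 lower, with a median of 0.01, where 5.79% of all genes were higher and 2.37% lower. Rpia and Rpe, the isomerase and epimerase of the non-oxidative branch, named after their values were seen, were not called (0.27 ± 0.17 and 0.13 ± 0.15). Under gastric reflux 1 gene of this list was higher and 4 lower (10.5% and 7.18% of all genes), under duodenal 1 was lower (0.682%), and under mixed reflux 3 were higher (2.29%). The higher one was Mthfd1l, a mitochondrial enzyme of folate metabolism (0.56 ± 0.11, limma adjusted p = 0.0059), whose 4 conditions ranged from 0.06 without to 1.74 under mixed reflux, and the lower one Nadk2, the mitochondrial NAD kinase (-0.34 ± 0.10, limma adjusted p = 0.0458). A list of 13 genes was labelled NADPH-using reductases of redox defence and detoxification, a label that does not hold for Srxn1. Of these 8 were lower and 0 higher, with a median of -0.73, where the median of all genes was 0.03 and 2.37% of all genes were lower. They were led by Nqo1, a quinone reductase (-2.97 ± 0.13, limma adjusted p = 2.2e-09), Ptgr1, a prostaglandin reductase (-1.69 ± 0.11, limma adjusted p = 1.08e-07), Blvrb, a biliverdin reductase (-1.14 ± 0.13), and Akr1b8, of the aldo-keto reductases (-1.44 ± 0.13). Sulfiredoxin (Srxn1, -0.99 ± 0.16), the carbonyl reductases Cbr3 (-0.98 ± 0.14) and Cbr1 (-0.73 ± 0.11), and the thioredoxin reductase Txnrd1 (-0.65 ± 0.14) were also lower. By condition, 8 genes of this list were lower with gastric reflux, and 3 each without reflux (0.0828% of all genes), with duodenal and with mixed reflux (1.17% of all genes). Akr1b8 differed by -2.57 without and -2.56 under gastric reflux, and by -0.28 under duodenal and -0.35 under mixed reflux. The 1 gene called higher under duodenal (1.2% of all genes) and under mixed reflux was Gsr, glutathione reductase, named after its values were seen. Gsr differed by 0.73 ± 0.15 under duodenal (limma adjusted p = 0.0236), by 1.38 ± 0.22 under mixed (limma adjusted p = 0.0025) and by -1.12 ± 0.15 under gastric reflux (limma adjusted p = 0.00119).

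Users of NADPH in synthesis, and glycolysis, with which the pathway shares its sugar phosphates, were also listed. Of 15 fatty acid and sterol synthesis genes 0 were called in the mean comparison (limma; 2 at an unadjusted p under 0.05; median 0.03), and of 15 glycolysis genes 0 were called (4 unadjusted; median -0.02). In limma's test of single conditions 1 synthesis gene was higher under gastric (10.5% of all genes), 1 lower under duodenal (0.682%) and 1 higher under mixed reflux (2.29%). The duodenal and the mixed reflux call fell on the same gene, Scd2 (-0.99 and 1.22), named after its values were seen. Of the glycolysis genes 4 were lower and 1 higher under gastric reflux, where 7.18% and 10.5% of all genes were. There the skeletal muscle markers averaged 2.38 to 6.13 on Nrf2-null arrays and 0.97 to 5.44 on wild-type arrays, and their part in these counts was not tested.

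**Figure D4:**
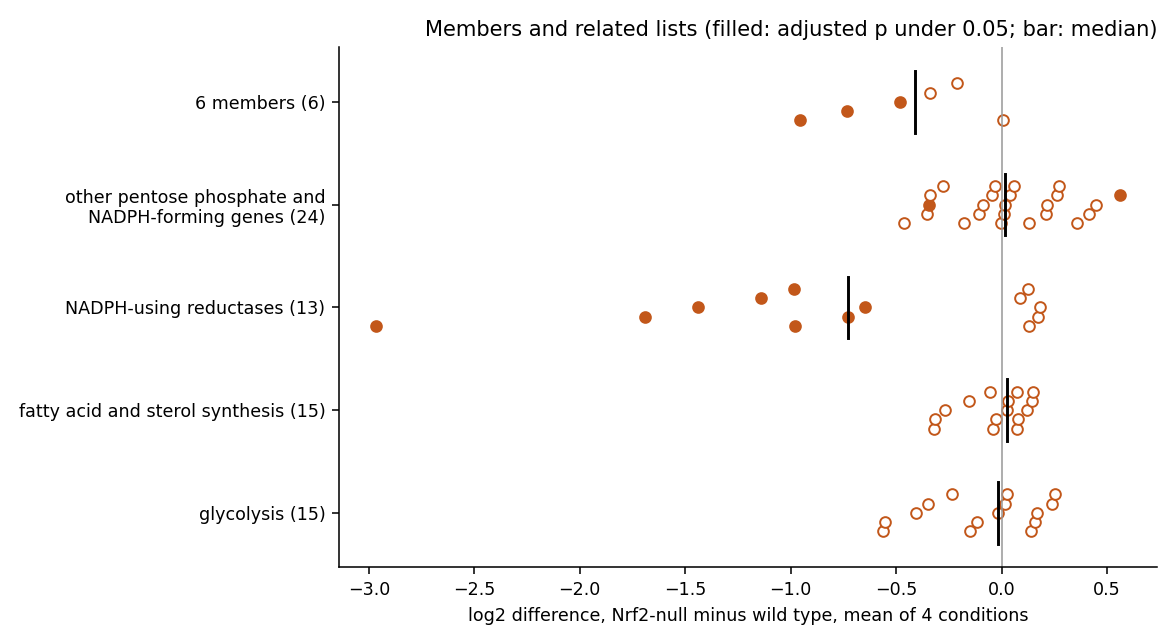
Log2 difference Nrf2-null minus wild type, mean of 4 conditions (x axis), of each tested gene of the set and of 4 lists of related genes, with a bar at the median of each list and filled circles for adjusted p under 0.05. The genes labelled NADPH-using reductases reach -2.97 (Nqo1) and their median is -0.73, against -0.41 for the 6 enzyme genes and 0.01, 0.03 and -0.02 for the other lists.

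Across the 20 samples in which all 6 genes were measured, G6pdx and Pgd had the closest course (Pearson r = 0.85, Spearman rho = 0.80), followed by G6pdx and Tkt (r = 0.78) and by Tkt and Taldo1 (r = 0.74). Me1 and Idh1 went together (r = 0.74), and neither followed Tkt (r = 0.05 and -0.04). These correlations are descriptions over samples that share groups, genotype and the common reference. The genes whose course was most like the mean of the 6, among 20231 measured in all 20 samples, were Gsta1 (r = 0.90), BC024137 (r = 0.90), Gss (r = 0.89), Dnajc6 (r = 0.89) and Pogk (r = 0.88). For single members the nearest gene was Ptgr1 for G6pdx (r = 0.92), Ces1g for Pgd (r = 0.83), Gstp1 for Tkt (r = 0.87), Fnbp1 for Taldo1 (r = 0.91), Rab7 for Me1 (r = 0.90) and Btg3 for Idh1 (r = 0.97). In the mean genotype comparison Ptgr1, Ces1g (-1.46 ± 0.13) and Gstp1 (-1.74 ± 0.11) were lower in the Nrf2-null oesophagus, while Fnbp1 (-0.26 ± 0.09), Rab7 (0.02 ± 0.13) and Btg3 (-0.09 ± 0.27) were not called.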

How the data were processed

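The deposited scanner files hold, per the file headers, mean and local background intensity in each dye for 45018 spots and the software's log10 ratio. Headers name Agilent Feature Extraction 10.5.1.1 with build mm7 on slide 1 and 10.7.3.1 with mm9 on the rest, while the submitters' processing notes name 9.1. The deposited value table was read as log2 ratios: column medians were 0 to 0.069 and regression on the scanner's log10 values gave slopes of 2.68 to 3.14. How the authors normalised it: not given in the sources used here.

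In limma 3.58.1 (R 4.3.3), background was corrected by normexp (offset 50, flagged local backgrounds replaced by the array median), and dyes were normalised by loess with control spots at weight 0. Outlier spots were left out. The brightest probe stood for a gene, which was tested where any of its probes was well above background (Cy5) on every array of at least 1 group. Group means were fitted to 22 samples (lmFit, eBayes; residual df 14, prior df 2.92), with Benjamini-Hochberg adjustment and a limit of 0.05. The script was tested on simulated data. The design text calls the arrays biological replicates. Same-numbered replicates correlated at -0.33 to 0.05 in their deviations, so the numbers were not read as pairs. The number of arrays limits precision.

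Named are the 6 members, genes of 4 related lists called in the mean comparison (up to 8 a list) and the nearest genes by Pearson correlation. Members, lists and tests were chosen with earlier results of these data known.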

Additional observations from a re-analysis of the deposited data

How the results depend on the processing

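The mean genotype comparison called 3 of the 6 genes; 34 of 36 alternatives stayed within 1.5 times of that, and it was 1 (G6pdx) with median centring and with scan day as a block; leaving out 1 array at a time gave 3 to 4. Without reflux the count was 0, and 1 with local backgrounds as read. Under gastric reflux it was 1, but 0 with median centring, with scan day as a block and with only the groups compared, 2 with the mean of all probes and with the Nrf2-null mixed reflux arrays as 3 samples, and 3 without the low-signal arrays (all 4, or the 2 Nrf2-null ones). Leaving out 1 array gave 1 to 2 there, with 2 calls (G6pdx and Tkt) without wild-type gastric replicate 2 or Nrf2-null gastric replicate 1. Under duodenal reflux it was 1, but 0 with median centring, 2 with slide as a block and with only the groups compared, and 3 with mixed reflux as 3 samples. Under mixed reflux it was 0, but 1 with slide as a block and without the low-signal arrays (both versions), and 2 with mixed reflux as 3 samples.

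With the replicate number as a block, which does not pair the samples, gastric reflux gave 2 calls in the genotype comparison, Tkt being added, and no other count moved by over 1.5 times. In wild-type mice duodenal reflux gave 0 calls, but 1 with local backgrounds as read, 2 without the low-signal arrays (both versions) and 3 with only the groups compared. In Nrf2-null mice duodenal reflux gave 1 call, but 0 with the authors' deposited values, median centring, scan day as a block, within scan day 3, only the groups compared and without the low-signal arrays (both versions), and 2 with slide as a block; leaving out 1 array gave 0 to 1. Slide as a block gave 2 calls under gastric and 1 under mixed reflux in Nrf2-null mice, where both had 0, and turned Idh1 under duodenal reflux to -3.63 (limma adjusted p = 0.00904) from 0.08. The F test gave 0 to 1 when arrays were left out, 1 without Nrf2-null gastric replicate 1. The causes were not tested. Wild type without reflux replicate 3 could not be left out, since the probes that represent 5 members then had no value in that group, and slide as a block could not be fitted for comparisons that link slides 1 and 2 to the rest. Median centring moved the median of all genes to 0.32 without and -0.06 under gastric reflux, against 0.03 and 0.11. Under mixed reflux it made the genotype differences of G6pdx (-0.39), Pgd (-0.00031), Tkt (-0.0022), Taldo1 (-0.21) and Me1 (-0.27) smaller. That of Idh1 became larger (1.01). Low Cy5 signal on 4 arrays limits what can be said of Idh1, whose lowest values lie on the 2 Nrf2-null ones.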
